A study of Sparus aurata with 16 samples.

Results

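The liver transcriptome of starved gilthead sea bream (*Sparus aurata*) was set against that of fish fed HLL, the diet high in protein and low in lipids and carbohydrates. The members are all 25225 sequences of a custom oligonucleotide array, taken from the 62976 features of each array after 1319 control features were left out, and measured in 4 starved and 4 HLL livers. These are 8 of the 32 channels of the series, chosen by the titles of the liver arrays. Starved juveniles received no food for 23 days. HLL juveniles ate once daily over the same 23 days, with 25 g/kg of body weight per day on offer. The fish of diets MHL (medium protein, high lipids, low carbohydrates) and LLH (high in carbohydrates, low in protein and lipids) were fed in the same way and are used here to fit the spread and to place the HLL level among fed fish. No genetic modification was involved, and the labels name the fish by number within a group.

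In a fed carnivorous fish the liver takes up amino acids from the diet, transfers their nitrogen, and turns part of the carbon into glucose and lipids. During food deprivation the supply from the diet stops and the liver draws on stored and tissue-derived substrates. Alanine aminotransferase links amino acids to pyruvate, pyruvate kinase closes glycolysis, and acetyl-CoA carboxylase makes the malonyl-CoA from which fatty acids are built, so that these enzymes sit where protein, sugar and lipid metabolism meet.

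On each of the 8 liver arrays a Cy5-labelled fish was set against a Cy3-labelled fish from another group. Arrays D and E paired a starved with an HLL fish directly. HLL fish 3 and 4 shared arrays with MHL fish, and starved fish 3 and 4 shared arrays with LLH fish. Among fish 3 and 4, group and array partner therefore cannot be told apart. For the Cy5 fish of array D, the title names HLL-1 while another label names LLH. It was taken as HLL-1, and values without it are given where they matter for starved against HLL fish, but not for comparisons between diets. All 8 arrays lay on 1 slide, which held all 4 groups. Between 57.9% and 66.6% of the spots in a channel were well above background, no spot was saturated (0 spots), and the number of arrays limits the precision. Array identifiers name assembled sequences or single reads, apart from 8 gene symbols and 2 other names, and 0 of them matched the RefSeq gene table, so that the tissue label could not be checked here against markers of hepatocytes, pancreas or blood. In whole liver, fewer cells of a type and less RNA per cell cannot be told apart.

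Starved and HLL livers differed in 26% of the array's sequences, in nearly equal numbers both ways. Normalisation by loess centres the log ratios of each array at every level. This itself favours an even split, so the balance is not a result about the liver. With an adjusted p under 0.05 from limma over all sequences, 3359 sequences (13.3%) were higher and 3192 (12.7%) lower in starved fish (n = 4 per group). Most of these differences were modest, with a median log2 difference of 0.50 among the higher and -0.54 among the lower sequences. At least 2-fold, 608 sequences (2.41%) were higher and 726 (2.88%) lower. At least 4-fold, 141 were higher and 211 lower, and at least 10-fold, 49 were higher and 45 lower. Without HLL-1, the fish with conflicting labels, the 4-fold split was 147 higher and 194 lower. Over all 25225 sequences the 25th and 75th percentiles of the log2 difference were -0.1 and 0.12, and 95% of the values lay between -1.13 and 1.04.

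These numbers depended on the fit. A fit of the 8 log ratios in place of the 16 channels called 1631 sequences higher and 1602 lower. With the processed signals of Agilent Feature Extraction, 3327 were higher and 4485 lower. Median centring within arrays in place of loess turned the 2-fold split to 970 higher and 474 lower, against 608 and 726.

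**Figure D1:**
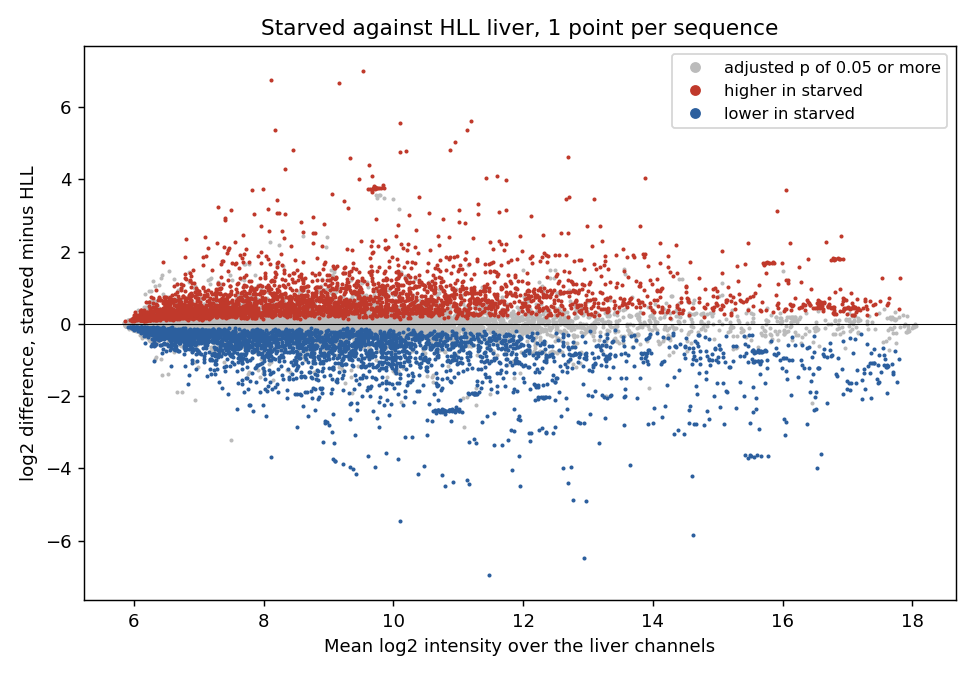
Log2 difference (starved minus HLL, vertical axis) against the mean log2 intensity over the liver channels (horizontal axis), with 1 point for each of the 25225 sequences, red where higher and blue where lower in starved fish at an adjusted p under 0.05, grey otherwise. The 3359 red and 3192 blue points spread to both sides at every level above the dimmest, and the short horizontal streaks are neighbouring isotigs with nearly the same values.

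In the plot of difference against level, the share of called sequences rose with brightness. Ease of detection and true size of change were not told apart here. When the sequences were split by level into 4 equal parts, the dimmest part, with a mean log2 intensity of at most 6.1, had 0.65% of its sequences higher and 0.571% lower in starved fish. In the brightest part, 24.5% were higher and 24.4% lower. Sequences at least 2-fold changed made up 0% of the dimmest and 15.7% of the brightest part. At low intensity, the offset of the background correction shrinks a difference, so that small values there can understate the change in signal.

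Every starved fish lay above every HLL fish in 3018 sequences (12%) and below every HLL fish in 2914 (11.6%), without regard to any test. Among the sequences called higher, 2596 (77.3%) had groups that did not overlap, and among those called lower, 2499 (78.3%). The median SD between fish was 0.107 in starved and 0.101 in HLL livers, and 0.162 and 0.151 over the 15323 sequences well above background in all 8 fish. Single spots of the same probe on 1 array had a median SD of 0.131, measured on 50 probes printed 11 or 12 times. For those probes the median SD between fish was 0.111 in starved and 0.115 in HLL livers. The spread of single spots is not on the scale of sequence values, which average spots and probes.

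Diet made a smaller difference than food deprivation in the number of calls. In the same fit, 444 sequences (1.76%) differed between MHL and HLL and 578 (2.29%) between LLH and HLL, in either direction. These comparisons share the HLL fish with that of starved fish, and the numbers were not tested against each other. They include HLL-1, whose other label names LLH.

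The 8 sequences named by gene symbol are enzymes, and 6 of the 8 were lower in starved fish while none (0 of 8) was higher, beside 12.7% lower and 13.3% higher over all sequences. They comprise the cytosolic alanine aminotransferases cALT1 and cALT2, the mitochondrial form mALT, the liver and muscle types of pyruvate kinase (PKL and PKM), the transcript variants ACC1tv1 and ACC1tv2 of acetyl-CoA carboxylase 1, and acetyl-CoA carboxylase 2 (ACC2). The set is small. The sequences cALT1 and cALT2 had nearly the same values and may not be separate measurements, which was not tested. ACC1tv1 and ACC1tv2 are likewise variants of 1 enzyme.

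Cytosolic alanine aminotransferase was clearly lower in starved fish. The log2 intensity of cALT1 was 13.6, 14.43, 14.55 and 14.33 in starved fish 1 to 4, against 15.83, 16.22, 16.02 and 15.96 in HLL fish 1 to 4. The highest starved fish lay 1.28 below the lowest HLL fish. The group means were 14.23 ± 0.43 in starved and 16.01 ± 0.16 in HLL fish (SD, n = 4 each), a fitted log2 difference of -1.85 (SE 0.22, 95% interval -2.32 to -1.39, limma adjusted p = 4.85e-05), or 3.61-fold lower. The variant cALT2 was 13.55, 14.47, 14.5 and 14.38 in starved and 15.87, 16.22, 16.03 and 16.04 in HLL fish, with a log2 difference of -1.89 (SE 0.22, limma adjusted p = 5.5e-05). Over the 16 liver channels the values of cALT1 and cALT2 correlated with r = 0.998 (a description over fish that share arrays), so that both sequences rise and fall together and cross-hybridisation between them was not tested. In both, Starved-1 was the lowest fish and HLL-2 the highest.

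The mitochondrial alanine aminotransferase behaved otherwise. Its log2 intensity was 13.99, 14.45, 14.31 and 14.06 in starved fish and 13.83, 14.37, 13.84 and 13.59 in HLL fish. These ranges overlap, HLL-2 lying above 3 of the starved fish. The means of mALT were 14.20 ± 0.21 and 13.91 ± 0.33 (SD, n = 4 each, starved and HLL), and the log2 difference of 0.29 (SE 0.15, limma adjusted p = 0.218) did not pass the test. Its 95% interval, -0.05 to 0.62, reaches a 1.54-fold higher level and does not overlap that of cALT1, although the difference between the 2 enzymes was not itself tested. With median centring within arrays mALT was higher in starved fish (log2 difference 0.53, limma adjusted p = 0.0267), and likewise without HLL-2 (0.45, adjusted p = 0.047).

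Liver pyruvate kinase, which catalyses the last step of glycolysis, was lower in starved fish. The log2 intensity of PKL was 9.17, 9.68, 9.56 and 9.39 in starved fish, against 9.96, 10.44, 9.92 and 10.17 in HLL fish. The groups did not overlap, with 0.24 between the nearest fish. The means were 9.45 ± 0.22 in starved and 10.12 ± 0.24 in HLL fish (SD, n = 4 each), a fitted log2 difference of -0.72 (SE 0.17, limma adjusted p = 0.00616), or 1.64-fold lower. Both probes of PKL passed the test, with log2 differences of -0.73 and -0.7. Between fish 3 and 4 alone the fitted difference was -0.65 and did not pass (adjusted p = 0.106), nor did it with array D left out (-0.58, adjusted p = 0.0556).

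PKM, the muscle type of the same enzyme, was close to background in the liver. Its values ran between 6.25 and 6.38 in starved and between 6.26 and 6.37 in HLL fish, with a log2 difference of -0.03 (95% interval -0.14 to 0.08, limma adjusted p = 0.769). Only 1 of its 2 probes was well above background, in all 8 fish.

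Acetyl-CoA carboxylase 1, the committed enzyme of fatty acid synthesis, was lower in starved livers, where neither variant was well above background. ACC1tv2 read 6.11, 5.91, 6.15 and 6.1 in starved fish, against 6.93, 7.18, 7.12 and 7.85 in HLL fish. It was well above background in 0 of 4 starved and 4 of 4 HLL fish, and the groups lay 0.79 apart. As a bound on signal, ACC1tv2 was 2.31-fold lower in starved fish (measured log2 means 6.07 ± 0.11 and 7.27 ± 0.40 in starved and HLL fish, SD, n = 4 each, limma adjusted p = 2.35e-05). In such a bound, the mean of the detected group is set against the higher of the undetected sequence's own value and the lowest detected signal of each channel. For ACC1tv2 the bound equals the difference of the measured means, and it leaves out the spread between fish. The fitted log2 difference of ACC1tv2 was -1.18 (95% interval -1.44 to -0.91), and it was -2.54 with an offset of 0 and -4.24 with processed signals.

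ACC1tv1 read 5.99, 5.85, 6.04 and 6 in starved fish, against 6.35, 6.53, 6.42 and 6.75 in HLL fish, again without overlap. It too was well above background in 0 of 4 starved and 4 of 4 HLL fish. Its bound, 1.45-fold lower in starved fish, again equals the difference of the means (limma adjusted p = 3e-05). The fitted log2 difference of ACC1tv1 was -0.54 (95% interval -0.66 to -0.41), and it was -1.51 with an offset of 0 and -2.57 with processed signals, so that the enzymes cannot be ranked by size. Its probes differed in size, at -0.16 and -0.92 on the log2 scale, and the first was not well above background in any of the 8 fish.

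ACC2, whose mammalian counterpart makes malonyl-CoA at the mitochondrion where it limits fatty acid import, gave a small fitted difference close to background. Its values were 6.17 to 6.29 in starved and 6.37 to 6.6 in HLL fish, with a log2 difference of -0.25 (SE 0.05, limma adjusted p = 0.00319). The probes of ACC2 disagreed, one at -0.47 (adjusted p = 0.000681) and the other at -0.02 (adjusted p = 0.782). The call was lost in the fit of log ratios (-0.26, adjusted p = 0.108) and with the authors' log2 ratios (-0.46, adjusted p = 0.108). With an offset of 0 ACC2 differed by -0.56 (limma adjusted p = 0.00947) and with processed signals by -0.9 (adjusted p = 0.0201). The size of its difference therefore depends on the background correction.

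**Figure D2:**
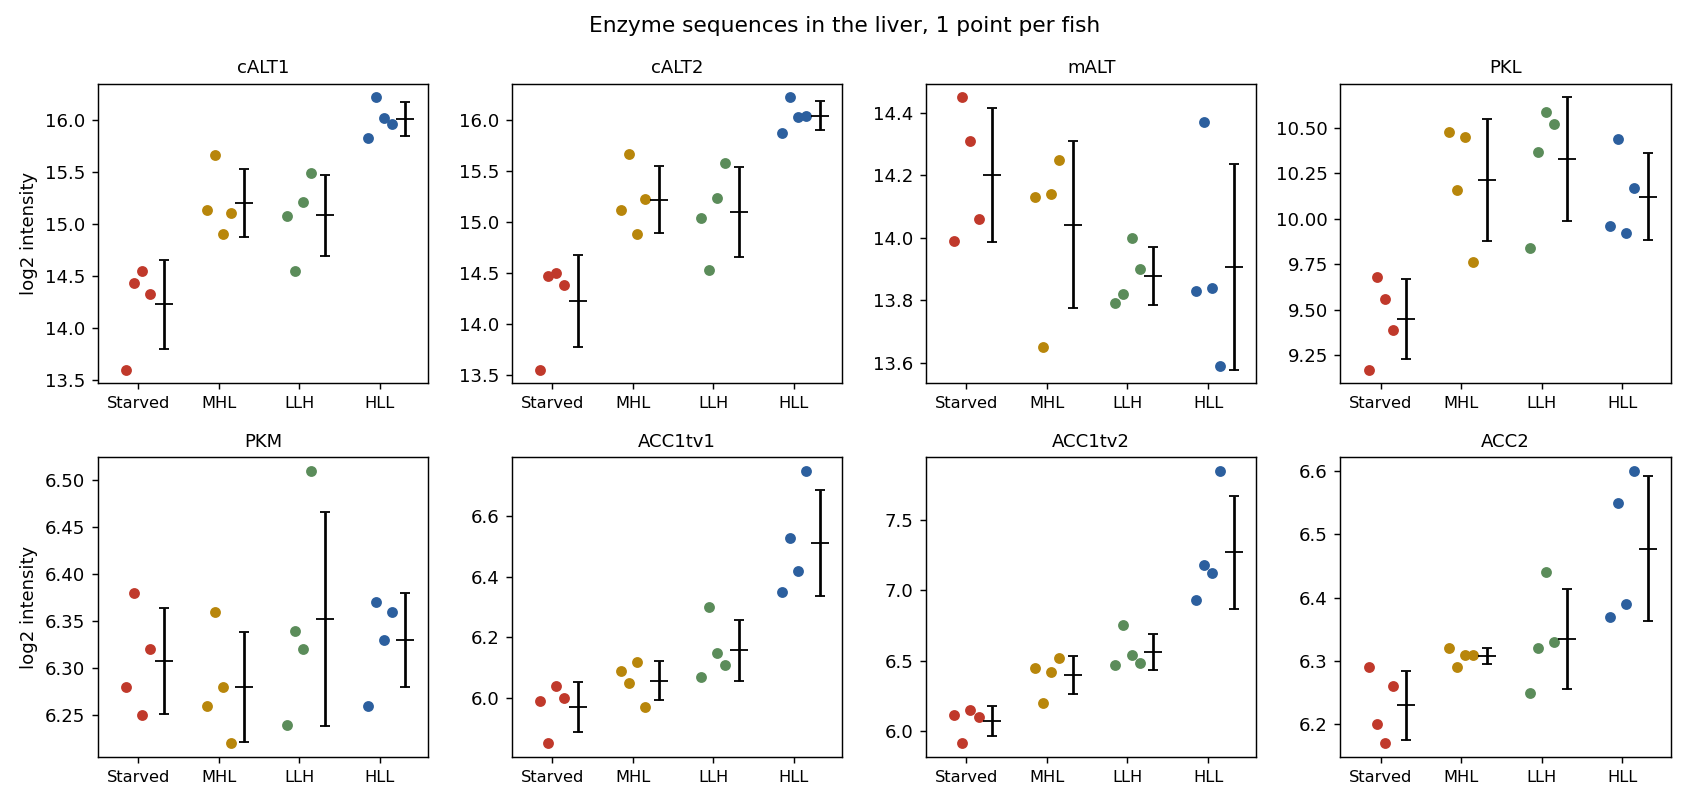
Log2 intensity (vertical axes, each with its own range) of the 8 enzyme sequences in the liver of starved, MHL, LLH and HLL fish, with 1 point per fish and the mean ± SD of 4 fish beside it. Starved fish lie below all HLL fish for cALT1, cALT2, PKL, ACC1tv1, ACC1tv2 and ACC2, and overlap them for mALT and PKM.

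The plot of the enzyme sequences also places HLL among the fed groups. ACC1tv2 averaged 6.40 ± 0.14 in MHL, 6.56 ± 0.13 in LLH and 7.27 ± 0.40 in HLL fish (SD, n = 4 each). MHL and LLH fish were both lower than HLL fish (log2 difference -0.9, limma adjusted p = 0.00783, and -0.71, adjusted p = 0.0179). The same held for ACC1tv1 (-0.47, adjusted p = 0.00506, and -0.37, adjusted p = 0.0127), which was well above background in 0 of 4 MHL and 1 of 4 LLH fish. HLL-4 was the highest HLL fish for both variants (7.85 for ACC1tv2 and 6.75 for ACC1tv1). Cytosolic alanine aminotransferase was lower in LLH than in HLL fish (cALT1 -1.01, adjusted p = 0.0367, and cALT2 -1.03, adjusted p = 0.0414), while MHL minus HLL was -0.82 and -0.83 and did not pass (adjusted p = 0.0774 and 0.0831). For these 4 sequences the HLL fish had the highest mean of the fed groups. PKL did not follow this order, since MHL and LLH averaged 10.21 and 10.33 against 10.12 in HLL fish (adjusted p = 0.833 and 0.707). All these diet comparisons include HLL-1, whose other label names LLH, and no value without it is given.

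The largest differences on the array belonged to sequences without an annotation in the files used. Isotigs are assembled transcript sequences, and the 2 with the largest increase and the 2 with the largest decrease are named here by a rule on size, overlap and both probes, out of 3646 sequences that met its conditions (1913 higher and 1733 lower). They were picked for their difference, so that its size is a description of the extremes.

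Of the 2 increases, isotig02702 had the larger fitted difference, but not under every alternative. Its log2 intensity was 13.9, 14.27, 14.62 and 14.64 in starved fish, against 7.4, 8.33, 7.16 and 6.6 in HLL fish. The fitted log2 difference was 6.99 (SE 0.52, limma adjusted p = 1.87e-06), or 127-fold, with a 95% interval of 58.1-fold to 279-fold. With an offset of 0 isotig02702 differed by 7.72 and with processed signals by 7.98, both less than isotig10837, which was also the larger with the authors' ratios (7.83, against 7.55 for isotig02702). Isotig10837 was at 12.97, 13.08, 13.11 and 13.3 in starved fish and at 6.21, 6.83, 6.25 and 6.1 in HLL fish, of which 2 of 4 were well above background. It differed by 6.75 (SE 0.17, limma adjusted p = 4.92e-10). With an HLL level this near to background the size depends on the background correction, and isotig10837 differed by 8.43 with an offset of 0 and by 9.71 with processed signals. It varied less between starved fish (SD 0.14) than isotig02702 did (SD 0.35).

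On the other side, isotig04185 was at 6.28, 6.08, 6.9 and 6.67 in starved fish, against 12.54, 13.93, 13.05 and 14.08 in HLL fish. The fitted log2 difference was -6.95 (SE 0.26, limma adjusted p = 1.45e-08), or 124-fold lower. With processed signals isotig04185 differed by -8.32. Isotig05622 was at 9.04, 9.45, 7.75 and 7.98 in starved fish, against 14.71, 15.1, 14.98 and 15.32 in HLL fish, with a difference of -6.47 (SE 0.40, limma adjusted p = 5.13e-07). Starved fish 1 and 2 lay more than 1 above starved fish 3 and 4 for isotig05622, yet all were over 5 below any HLL fish. Probes of the same sequence gave nearly the same value, such as -7.06 and -6.84 for isotig04185 and 7.04 and 6.94 for isotig02702. The rule that picked these sequences required both probes to be called in the same direction.

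**Figure D3:**
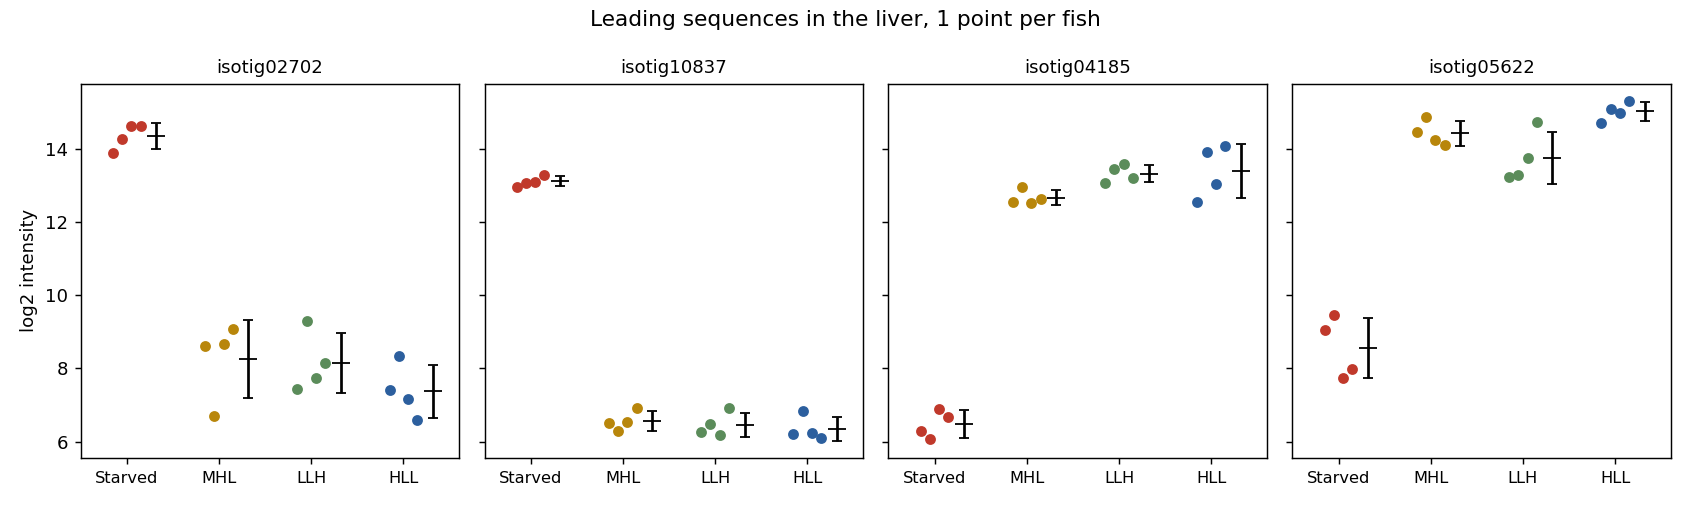
Log2 intensity (shared vertical axis) of the 4 leading sequences in the liver of starved, MHL, LLH and HLL fish, with 1 point per fish and the mean ± SD of 4 fish beside it. The 3 fed groups lie together and apart from starved fish, as for isotig10837 with means of 13.12 in starved, 6.56 in MHL, 6.46 in LLH and 6.35 in HLL fish.

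In the plot of the leading sequences no fed group overlapped the starved fish. Isotig02702 averaged 8.26 in MHL and 8.16 in LLH fish, beside 7.37 in HLL fish, and isotig04185 averaged 12.67 and 13.33, beside 13.4. None of the 4 sequences passed the test between MHL and HLL or between LLH and HLL (limma adjusted p between 0.143 and 0.85). The lowest fed value of isotig05622 was 13.22, in LLH-1, against a highest starved value of 9.45.

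Sequences changed at least 10-fold had common features in signal. The 49 higher in starved fish had median levels of 12.65 in starved and 8.66 in HLL fish, and the 45 lower had 8.76 in starved and 12.83 in HLL fish, so that the low side was mostly still measurable. It was well above background in all 4 fish of the low group for 46 of the 49 and for 44 of the 45. Fish varied more where the sequence was low: the median SD was 0.35 in starved and 0.76 in HLL fish for the 49, and 0.71 in starved and 0.35 in HLL fish for the 45. Both probes reached 10-fold in 44 of the 49 sequences higher, all of which had 2 probes, and in 39 of the 44 sequences lower that had 2. Groups overlapped in 1 of the 49 and in 0 of the 45. Over all sequences, 12% had every starved fish above every HLL fish and 11.6% had every starved fish below. The 49 and 45 were picked by their difference in these same fish and probes. That choice itself favours groups without overlap, a bright high side and probes that both reach 10-fold.

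Presence against absence of signal was rare by comparison. In 97 sequences all 4 starved fish and no HLL fish were well above background, and 60 of these were called higher in starved fish. The reverse held for 14 sequences, all 14 of them called lower. Over whole channels, 66.6%, 63.7%, 65% and 59.8% of spots were well above background in starved fish 1 to 4. In HLL fish 1 to 4 these shares were 57.9%, 61.5%, 61.9% and 60.1%. Whether the excess of 97 over 14 goes beyond this difference between channels was not tested. Over all sequences 13.3% were called higher and 12.7% lower, but these 97 and 14 were picked by detection in 1 group, which itself favours a call in that direction. The largest bound, formed as for ACC1tv2, was 5.23-fold in favour of starved and 3.13-fold in favour of HLL fish, and it leaves out the spread between fish.

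A count of sequences is not a count of genes. Neighbouring isotigs often carried nearly the same values, and runs of consecutively numbered isotigs were therefore sought whose log2 intensities correlated above 0.99 over the 16 channels, a definition chosen after the values were seen. Among sequences at least 4-fold changed, 46 of 135 isotigs higher (34.1%) and 81 of 182 lower (44.5%) fell into such runs, and joining each run left 111 and 147 entries in place of 141 and 211. Among all called sequences the share was 6.67% of isotigs higher and 9.93% of isotigs lower. A large difference between starved and fed fish itself raises a correlation over the 16 channels. The shares at different sizes of change are therefore not comparable. The 81 lower isotigs include a run of 24 whose mean log2 difference was -2.4, and -1.01 without HLL-1. Its place among the 4-fold changes, and its part in the 44.5%, thus rest on the fish with conflicting labels. Without HLL-1 the 4-fold split was 147 higher and 194 lower, and the shares in runs were not computed again. The excess of lower over higher sequences at 4-fold was smaller with runs joined, and it turned with median centring within arrays, to 194 higher and 135 lower. Whether the members of a run are variants of 1 transcript was not tested.

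The longest run held 24 isotigs, and the size of its difference depended on a single fish. Its mean log2 intensity was 10.34, 9.91, 10.14 and 10.05 in starved fish, against 16.15, 11.43, 11.33 and 10.52 in HLL fish. HLL-1, the fish with conflicting labels, stood far above the other HLL fish and above all MHL fish (10.32 to 10.52) and LLH fish (10.11 to 10.59). The 24 isotigs had log2 differences between -2.44 and -2.36 (limma adjusted p between 0.0381 and 0.0469). Without HLL-1 their mean difference was -1.01, and all 24 remained called (adjusted p between 0.00153 and 0.0049). The calls were otherwise weak, since 0 of the 24 passed without HLL-2 or without any 1 of the 4 starved fish (adjusted p between 0.0505 and 0.111).

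In the other 7 runs of at least 5 isotigs, every isotig stayed called whichever starved or HLL fish was left out. These runs were taken from sequences already called with the same fish, which itself favours staying called. Over all sequences, 5269 to 5643 of the 6551 calls were kept with a fish left out, a share not matched for size of change. Isotigs correlate above 0.99 within a run by definition, so they are not separate results for that run. The longest among higher sequences, 13 isotigs, was at 12.26, 11.98, 12.46 and 12.5 in starved fish, against 6.96, 9.68, 9.49 and 8.46 in HLL fish, with a mean log2 difference of 3.74, or 3.14 without HLL-1. A run of 8 isotigs was at 11.67, 14.47, 13.08 and 11.83 in starved fish, against 16.42, 16.71, 15.93 and 16.46 in HLL fish. Here the starved fish were the variable group and the HLL fish the uniform one, with a mean log2 difference of -3.65, or -4.35 without Starved-2. In another run of 8 isotigs, among the brightest changed sequences, starved fish were at 16.87, 16.9, 17.84 and 17.07 and HLL fish at 15.93, 14.86, 15.74 and 15.33, a mean difference of 1.69.

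The direct and the indirect parts of the comparison share no fish. In the indirect part, HLL fish shared arrays with MHL fish and starved fish with LLH fish. Arrays D and E both showed starved fish higher by 2-fold or more in 375 sequences and lower by 2-fold or more in 525. Between fish 3 and 4 of each group, 354 of the 375 differed in the same direction and 298 (79.5%) again by at least 2-fold, beside 3.31% of all sequences. Of the 525 lower sequences, 509 had the same direction and 390 (74.3%) were at least 2-fold lower, beside 3.56% of all sequences. The correlation across sequences was r = 0.62 between arrays D and E and r = 0.76 between the direct and the indirect difference (25225 sequences that share channels and are not independent).

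**Figure D4:**
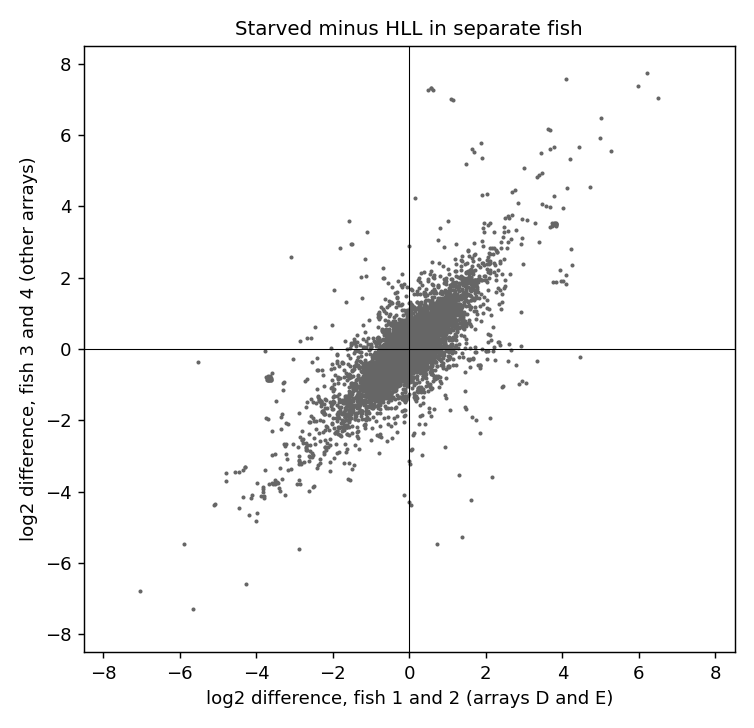
Log2 difference (starved minus HLL) between fish 3 and 4 of the groups (vertical axis) against that between fish 1 and 2 on arrays D and E (horizontal axis), with 1 point per sequence. Points run along the diagonal (r = 0.76), and the tight group at the left, at -0.83 on the vertical axis, is the run of 24 isotigs in which HLL-1 stood apart.

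The named sequences differed in how evenly the fish contributed. For isotig10837 the difference was 6.77 on array D, 6.26 on array E and 7.03 between fish 3 and 4. For cALT1 it was -2.23, -1.79 and -1.55, and for PKL -0.79, -0.76 and -0.57. ACC2 was at -0.08 on array D and at -0.36 on array E. With arrays D and E alone, limma had too few arrays to call any sequence (0 of 25225, with 4784 at an unadjusted p under 0.05), whatever the size of the difference.

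Most sequences were read by a pair of different probes, which share the fish and the array and so measure the probes. Of 24148 sequences with 2 probes, 5691 were called with the first probe, and 4211 of these (74%) were called in the same direction with the second, against 21.9% over all such sequences. The opposite direction was called in 14. Both probes were called at 2-fold or more in 492 sequences on the higher side and in 588 on the lower. Where the probes were well above background in all 8 fish, their differences correlated with r = 0.96 across sequences, against r = 0.92 over all.

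**Figure D5:**
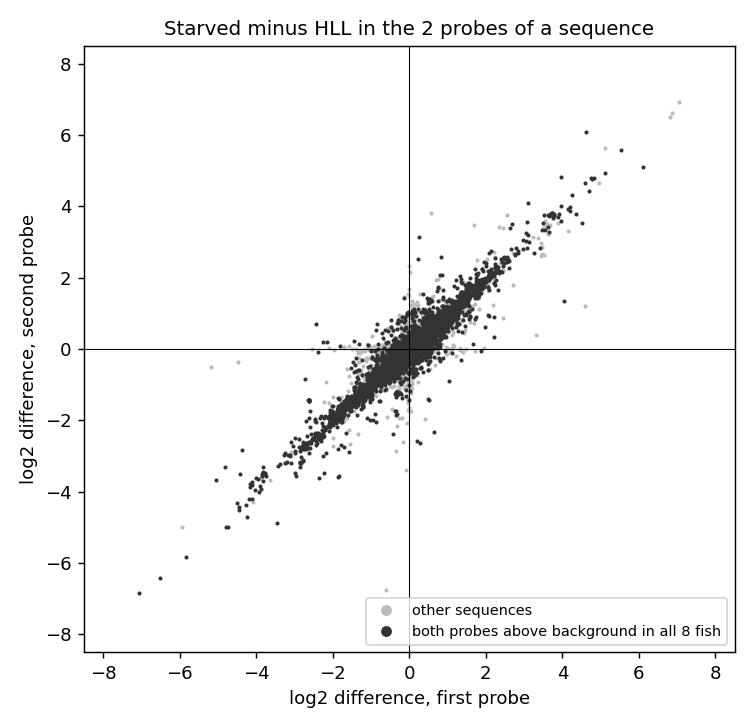
Log2 difference (starved minus HLL) of the second probe (vertical axis) against that of the first probe (horizontal axis), with 1 point for each of the 24148 sequences with 2 probes, dark where both were well above background in all 8 fish. Dark points lie along the diagonal (r = 0.96), while the points along either axis are sequences in which 1 probe read a difference and the other little.

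Isotigs and single reads differed in level as well as in their share of calls. Among 19488 isotigs, 14.5% were higher and 13.4% lower in starved fish, with a median log2 intensity of 7.26. Among 5655 single reads, which did not assemble with others, 9.5% were higher and 9.81% lower, with a median log2 intensity of 6.42. Level and kind cannot be told apart in these shares.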

How the data were processed

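Liver RNA was run by the authors on 8 arrays of 1 slide, each with a Cy5 and a Cy3 sample, in a dye-swapped double loop, and read out with Agilent Feature Extraction 10.7 per the labels. The authors deposited median and background intensity values per spot and channel, processed intensity values, the log10 ratio of Cy5 over Cy3, and their own normalised log2 ratios. Muscle arrays were not used here. The rows of the table of log2 ratios were matched to the features in reverse order (r of at least 0.834 with the scanner ratios on each array), and its centring is by the authors.

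Computation used limma 3.58.1 and statmod 1.5.0, run under R 4.3.3. Normexp with an offset of 50 was followed by loess and Aquantile, the last 2 as in the paper's methods, which do not name the background correction. Outlier-flagged spots were set to missing. Spots were averaged by probe, and probes by sequence after removing each probe's mean. Group and dye were the terms of the fit to the 16 channels, and the array was a random block. Tests were two-sided, with Benjamini-Hochberg adjustment over 25225 sequences and a threshold of 0.05. For single probes the adjustment was over both probes of the 24148 sequences with 2 probes. The intraspot correlation was 0.213. On simulated data this estimator came out above the correlation put in, whereas duplicateCorrelation recovered it. The correlation by duplicateCorrelation was 0.164 here, with 3280 sequences higher and 3113 lower in place of 3359 and 3192. Changes of 2-fold and 4-fold put into the simulated data were mostly found with either, and their mean size was recovered. Smaller changes were not put in.

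Members, lists and tests were chosen with earlier results of these data known. Named are the 8 gene symbols, then the 2 largest increases and 2 largest decreases among called sequences with groups that do not overlap, both probes called, and signal in all fish of the higher group. The labels do not say which fish shared an aquarium, so the fish of a group may not be independent. The p-values rest on the spread between fish within groups, MHL and LLH included, and not on that between aquaria. Alternatives were log ratios, no dye term, subsets of fish and arrays, other background corrections and normalisations, a filter on dim probes, the brightest probe, a block for fish number, the authors' ratios, array D's label, and each fish left out.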

Additional observations from a re-analysis of the deposited data

Results flagged for a closer look

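In 2 of 40 groups of 4 fish that were examined for the named sequences and the long runs of isotigs, 1 fish stood far apart from the other 3 relative to the spread of its group, which chance alone gives in about 5% of groups. For cALT2, Starved-1 was at 13.55 on the log2 scale and the other starved fish at 14.38 to 14.5, while HLL fish were at 15.87 to 16.22. Without Starved-1 the log2 difference was -1.69 (limma adjusted p = 0.000253), against -1.89 with it. For the run of 24 isotigs, which were lower in starved fish, HLL-1 was at 16.15 and the other HLL fish at 10.52 to 11.43, against 9.91 to 10.34 in starved fish. Without HLL-1 the mean log2 difference of that run was -1.01, against -2.4 with it. All 24 isotigs stayed called without HLL-1, and 0 of 24 without HLL-2 or without any 1 of the starved fish.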

How the results depend on the processing

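Counts of called sequences fell in fits with fewer values: 1631 higher and 1602 lower with log ratios, 1618 and 1640 with the authors' log2 ratios, and 2046 and 1828 with fish 3 and 4 only. Arrays D and E alone called 0 higher and 0 lower by limma, also 0 at 2-fold and 0 at 4-fold (4784 sequences at an unadjusted p under 0.05). Feature Extraction's processed signals gave 3327 higher and 4485 lower in all, 1143 and 1178 at 2-fold, and 253 and 357 at 4-fold. Median centring gave 5078 higher and 4636 lower in all, 970 and 474 at 2-fold, and 194 and 135 at 4-fold, so that the excess of lower sequences at 2-fold and 4-fold turned. The causes of these shifts in the counts were not tested. The share of first-probe calls repeated by the second was 81% with dim probes filtered and 70.2% with log ratios. With 1 fish left out at a time there were 2817 to 3102 higher and 2629 to 2954 lower, 566 to 634 and 641 to 750 at 2-fold, and 124 to 153 and 174 to 220 at 4-fold. PKM, never called, turned to 0.01 on arrays D and E and to 0.12 with processed signals. Starved and HLL fish with the same number had deviations from their group means that correlated by only 0.04 to 0.07, so the number was not taken as a pairing. With the fish number as a replicate block, 3100 sequences were higher and 2968 lower, and no named sequence changed its call. With the Cy5 fish of array D taken as LLH, 2865 were higher and 2731 lower. Leaving out array D, chosen after seeing the data, gave 2710 and 2604. The 4 leading isotigs, cALT1, cALT2 and ACC1tv2 kept their direction in all 18 alternatives and lost their call only on arrays D and E alone. Signal near background limits ACC1tv1, ACC1tv2, ACC2 and PKM, and the log2 difference of ACC1tv2 ran from -4.24 to -1.05 over these alternatives.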
